A study of Bos taurus with 52 samples.

Results

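Expression along the length of the day 17 bovine conceptus was followed in the 20 RNA-seq libraries whose titles state a length in cm, out of 27 conceptus libraries and 52 libraries in the series. The recipients were pregnant heifers (Bos taurus) classed as sub-fertile (SF) or high fertile (HF), and no other treatment, strain or allele is given for them. SF recipients gave 9 of the 20. HF recipients gave 6 conceptuses classed as short and 5 classed as long. They came from 12 heifers, 6 of each class, of which 8 gave 2 conceptuses, so that p-values here treat as independent some conceptuses that shared a uterus. Lengths ran from 1.2 to 17 cm with a median of 4 cm, from 1.5 cm upward in SF and from 1.2 to 17 cm in HF. The other 7 conceptus libraries, 1 SF, 1 HF short and 5 HF long, give no length and were kept out of every fit. A conceptus was sequenced as bulk tissue, so a change in the share of a cell type and a change of RNA per cell cannot be told apart.

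The ruminant blastocyst hatches, becomes ovoid and tubular, and then grows into a filament before it attaches. The lengthening tissue is mostly trophectoderm, an epithelium that secretes interferon tau, prostaglandins, pregnancy-associated glycoproteins (PAGs) and trophoblast Kunitz domain proteins (TKDPs). It is lined by extraembryonic endoderm, which makes apolipoproteins and other plasma proteins, and it carries a small embryonic disc with the epiblast, from which mesoderm arises. Interferon tau is the signal by which the conceptus keeps the corpus luteum in place.

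Lengths were not spread evenly over the 2 sample sheets named in the descriptions. Sheet 1 held 13 of the libraries (7 HF of 3.4 to 17 cm and 6 SF of 2 cm or more), and sheet 2 held 7 (4 HF of 1.2 to 2.8 cm and 3 SF of 1.5 to 4 cm). All 5 conceptuses under 2 cm were on sheet 2. The labels do not say what a sheet stands for. The correlation of sheet with log2 length was -0.757 over the 20 libraries, which inflated the variance of a length slope 2.464 times once the sheet was in the fit. For 22 of the 27 conceptus samples the description names another animal or length than the title. Titles were followed here. The sheet is given only in descriptions, so each library took it from the description that matched its title by heifer and any stated length. For most libraries that was not their own description. In heifers 690, 971 and 985 the description taken for the longer conceptus gave no length, so length could not place it on sheet 1. Some other matched descriptions gave no length, or only a close one. The spread of lengths over the sheets, the sheet term and the fits within 1 sheet rest on this matching. After class, sheet and length were fitted, the residuals of 2 conceptuses of 1 heifer had a median correlation of 0.341 (0.005 to 0.708 over the 8 heifers). It was -0.062 between heifers. Pairing by the descriptions gave a median of -0.212 (-0.557 to 0.656). The most correlated library was the mate for 6 of 16 libraries by the titles and for 4 of 16 by the descriptions. The choice of titles matters: with the columns identified by the descriptions 52 of the 78 slopes of genes named here changed sign, among them those of APOA1, APOE and SDHA.

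Library totals were 20.6 to 47 M counts, with 18818 to 22694 genes detected. The share of counts in the 10 leading genes was 12.1% to 15.6% in the 5 libraries under 2 cm and 14.8% to 19% in the 8 of 6.9 to 17 cm. The tissue matched its label. Trophectoderm markers summed to 10600 to 41260 CPM, the normalised read count scaled to library size, and endoderm markers to 363 to 2412 CPM. Most of the endoderm sum was APOA1 alone, at 308.4 to 2325 CPM. The medians of GATA4, GATA6, SOX17, FOXA2 and HNF4A lay between 1.83 and 29.5 CPM. AFP was at 0 in 8 of the 20 libraries and TTR in 15. Markers of uterine, immune or blood cells summed to 1.44 to 33.1 CPM, HBA was at 0 in all 20 libraries and HBB in 18. Among these markers PECAM1 had the highest median, 5.86 CPM (0.435 to 31.8), and the next was DCN at 0.498 CPM. On PC1, the leading principal component with 19.7% of all variance, the 3 length bands overlapped widely. On PC2 (18.1%) 4 of the 5 conceptuses under 2 cm scored from -74.96 to -36.01, and the fifth, of 1.3 cm from heifer 985, scored 28.02. The conceptus of 17 cm scored highest, at 63.11. The low end also held the 3.4 cm conceptus of heifer 825, on sheet 1, at -46.99.

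**Figure D1:**
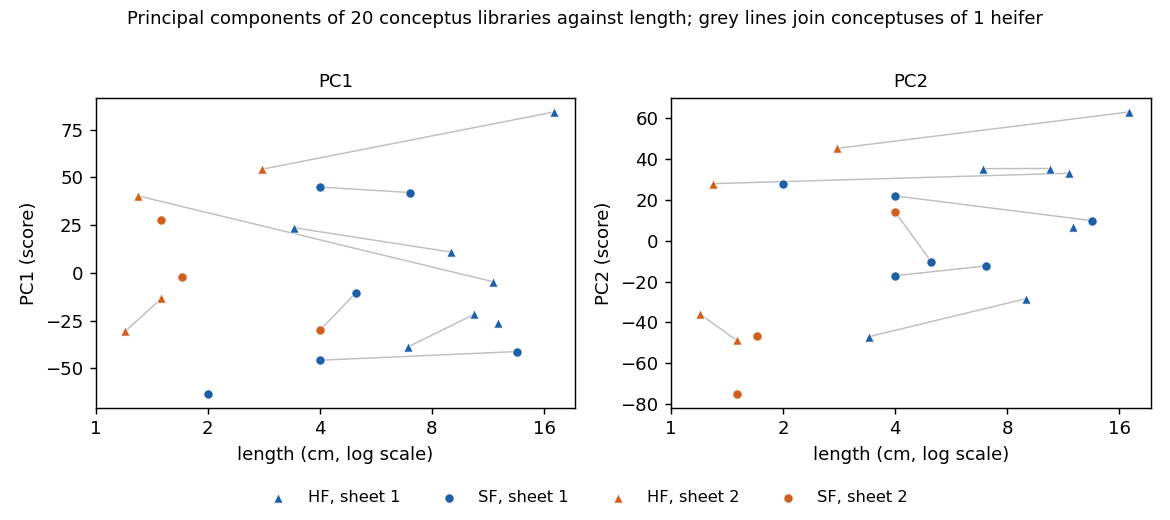
Scores of the 20 libraries on the first 2 principal components (y axes) against length in cm (x axis, log scale). Circles are SF and triangles HF, blue is sheet 1 and orange sheet 2, and grey lines join conceptuses of 1 heifer. On PC2, 4 of the 5 conceptuses under 2 cm lie between -74.96 and -36.01 and the fifth at 28.02.

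The question was which genes change as the conceptus lengthens. With class and sheet in the fit, no gene passed an adjusted p of 0.05 for the slope on log2 length (edgeR quasi-likelihood test, 0 of 15592 genes, 0%). At an unadjusted p under 0.05 the same fit had 1957 genes (12.6%), 1167 of them higher with length (7.48%) and 790 lower (5.07%). DESeq2 on the same design called 48 (0.308%) and limma-voom called 0. Without the sheet term edgeR called 923 genes (5.92%), 519 higher (3.33%) and 404 lower (2.59%). The slope is the log2 change for each doubling of length. Of the 923, 913 kept their sign with the sheet in the fit, with a median ratio of 0.78 between the slopes, and 440 had an unadjusted p under 0.05 there.

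Within a sheet the comparison had fewer libraries but no overlap of sheet and length. Sheet 1 alone called 0 of 15256 genes (0%), with 2480 at an unadjusted p under 0.05 (16.3%). Sheet 2 alone called 0 of 16547 (0%), with 1800 at that level (10.9%). Of the 909 genes called without the sheet term that sheet 1 could test, 772 had the same sign there and 232 also had an unadjusted p under 0.05. That was 461 of 519 called higher with the same sign, and 311 of 390 called lower. The libraries of sheet 1 were also in the fit that made these calls. This agreement was therefore partly built in and is a description, not a test. The sheets share no library but do share 3 heifers. Over 15112 genes tested in both, 56.9% of the slopes had the same sign and their correlation across genes was 0.292, where genes are not independent replicates. Of these 15112 genes, 2469 had an unadjusted p under 0.05 in sheet 1 and 1651 in sheet 2. In both sheets 240 genes had such a p, no more than unrelated sheets would share at those rates. Of the 240, 190 had the same sign. Below, a gene is called only by the adjusted p of the fit without the sheet term. Slopes with the sheet or within sheet 1, where given, are from fits that called no gene.

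**Figure D2:**
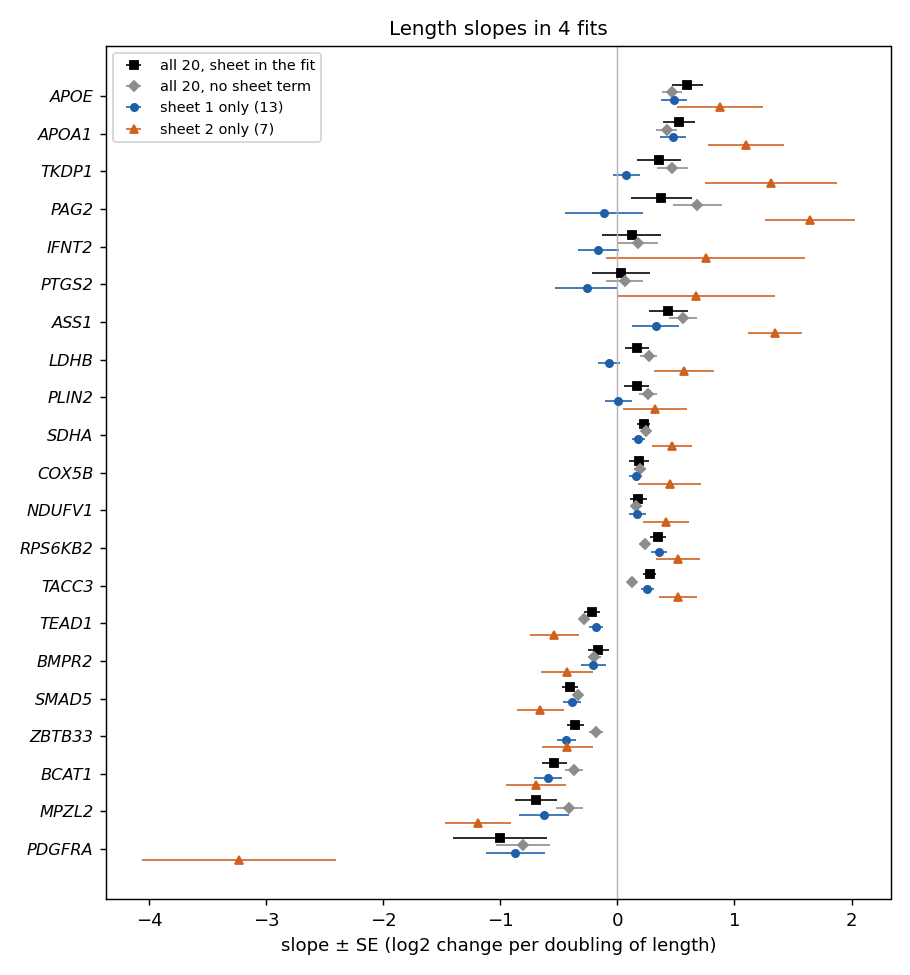
Slopes with their SE (x axis, log2 change per doubling of length) for 21 genes in 4 fits: all 20 libraries with the sheet (black), without it (grey), sheet 1 alone (blue) and sheet 2 alone (orange). APOE, APOA1, SDHA, SMAD5 and BCAT1 keep their side of 0 in all 4 fits, and PAG2, IFNT2, PTGS2 and LDHB are below 0 in sheet 1 alone.

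Genes of the extraembryonic endoderm were among those called in both directions. Of 24 tested genes of primitive and visceral endoderm, 3 were called higher (APOA1, APOE and TF) and 1 lower (PDGFRA), where 3.33% and 2.59% of all genes tested were. The median slope of the list was 0.035 without the sheet, against -0.009 over all genes tested, and 0.225 with the sheet, against 0.002. It was 0.302 in sheet 1 and -0.251 in sheet 2. APOA1, the main protein of high-density lipoprotein, ran at 308 to 802 CPM (median 725) in the 5 conceptuses under 2 cm, 615 to 2238 (median 1480) in the 7 of 2 to 5 cm and 959 to 2325 (median 1318) in the 8 of 6.9 to 17 cm. The shortest band lay below the longest without overlap, while the middle band spanned both. Its slope was 0.53 ± 0.14 with the sheet (unadjusted p = 0.00101), 0.48 ± 0.11 in sheet 1 and 0.42 ± 0.09 without the sheet (adjusted p = 0.0175). APOE, the ligand by which lipoproteins enter cells, had medians of 82.3, 241 and 247.2 CPM in the bands from short to long, and 1 conceptus under 2 cm reached 279.5 CPM. Its slope was 0.60 ± 0.13 with the sheet and 0.49 ± 0.11 in sheet 1 (adjusted p = 0.013 without the sheet). Transferrin (TF), the plasma iron carrier, had a slope of 1.09 ± 0.31 without the sheet (adjusted p = 0.044), 0.98 ± 0.48 with it and 0.86 ± 0.61 in sheet 1, and ran from 0.224 to 39.9 CPM within the longest band.

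PDGFRA, the receptor for platelet-derived growth factor that marks primitive endoderm and mesenchyme, went the other way. It ran at 1.89 to 90.9 CPM (median 42.5) under 2 cm, 1.61 to 30.2 (median 11.5) at 2 to 5 cm and 2.38 to 11.9 (median 4.67) above. The bands overlapped at the low end, and no conceptus of 6.9 cm or more passed 11.9 CPM. The slope was -1.0 ± 0.40 with the sheet, -0.87 ± 0.26 in sheet 1 and -0.80 ± 0.23 without the sheet (adjusted p = 0.0451). In 5 of 8 heifers the longer conceptus had less PDGFRA and in 3 more. HNF4A, a transcription factor of endoderm, was not called (0.23 ± 0.11 with the sheet, 0.26 ± 0.10 in sheet 1, -0.30 in sheet 2). GATA4, a zinc finger factor of the endoderm, was at 0.884 to 6.59 CPM and was not called (0.22 ± 0.20). AFP was too low to test, at 0 counts in 8 of the 20 libraries and at most 503.

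**Figure D3:**
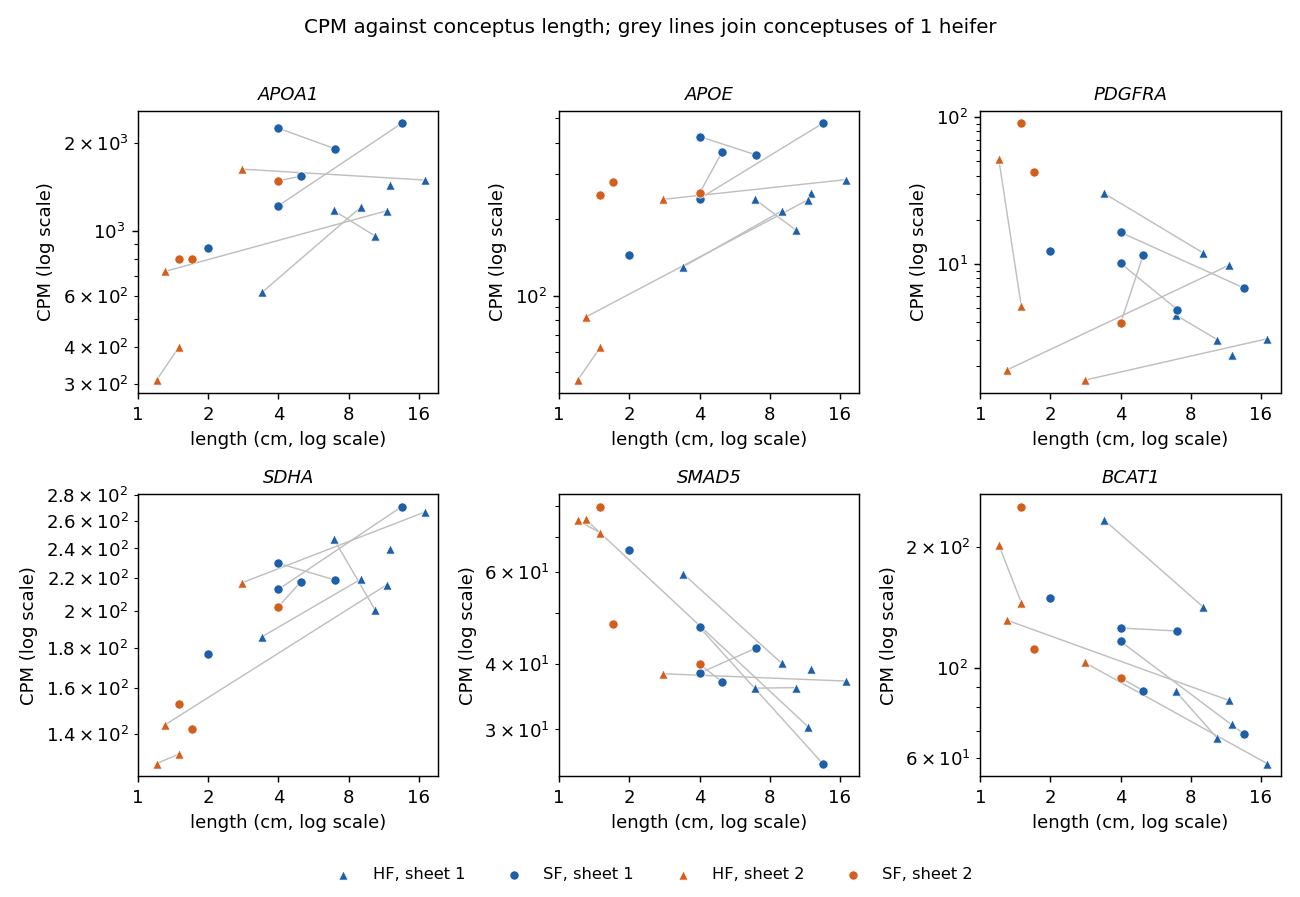
CPM (y axes, log scale) against length in cm (x axes, log scale) for APOA1, APOE, PDGFRA, SDHA, SMAD5 and BCAT1 in the 20 libraries. Circles are SF and triangles HF, blue is sheet 1 and orange sheet 2, and grey lines join conceptuses of 1 heifer. APOA1, APOE and SDHA lie higher and PDGFRA, SMAD5 and BCAT1 lower in long conceptuses, and every BCAT1 line descends.

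Secreted products of the trophectoderm did not share one course. IFNT2, an interferon tau gene, ran at 866.5 to 14660 CPM (median 2534) under 2 cm, 3793 to 11220 (median 7360) at 2 to 5 cm and 3225 to 13150 (median 7590) above. The highest and the lowest value of all 20 were both in conceptuses under 2 cm, the highest from heifer 985, whose longer conceptus had 13150 CPM. The slope was 0.12 ± 0.25 with the sheet (unadjusted p = 0.633) and -0.16 ± 0.18 in sheet 1. None of the 3 tested genes of interferon tau and its receptor was called. PTGS2, the enzyme that starts prostaglandin synthesis, was likewise not called (0.03 ± 0.25 with the sheet, -0.26 ± 0.27 in sheet 1), with band medians of 1377, 2531 and 2962 CPM and the highest single value, 6709 CPM, under 2 cm. Of the 15 tested genes of prostaglandin and glucocorticoid synthesis 0 were called. The same held for 15 of steroid synthesis and for the 1 of placental lactogen and prolactin-related proteins.

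TKDP1, a Kunitz-type protease inhibitor homologue and one of the most abundant transcripts, differed mainly at the short end. It ran at 2809 to 23000 CPM (median 9186) under 2 cm, 25420 to 35830 (median 28320) at 2 to 5 cm and 20210 to 44920 (median 35050) above. Beyond 2 cm the bands overlapped. Without the sheet its slope was 0.47 ± 0.13 (adjusted p = 0.0443), with the sheet 0.36 ± 0.19, and in sheet 1, which begins at 2 cm, 0.07 ± 0.12. PAG2, of the aspartic protease family named for pregnancy, had 276 to 768 CPM under 2 cm and 1223 to 4125 at 2 to 5 cm, but its lowest long conceptus had 511 CPM. It was not called (0.68 ± 0.21 without the sheet, adjusted p = 0.0525) and had -0.12 ± 0.33 in sheet 1. Of 6 tested PAGs 0 were called, and of 3 TKDPs 1. Reads of these families may be divided among close copies.

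TKDP4 and PAG12 were highest in both conceptuses of 1 heifer. In heifer 971 the 2.8 cm conceptus had 11640 CPM of TKDP4 and the 17 cm one 23630, while the other 18 conceptuses had at most 4930. PAG12 was at 650 and 1252 CPM in that pair, and at 243 and 182.8 CPM in the 4 and 7 cm conceptuses of heifer 778, against at most 90.5 CPM in the other 16. TKDP2 reached 1057 CPM in the 17 cm conceptus and 24.2 CPM in its 2.8 cm mate, with at most 28 CPM elsewhere. Their slopes with the sheet were 1.21 ± 0.70, 1.3 ± 0.57 and 1.74 ± 1.06 for TKDP4, TKDP2 and PAG12, none called, and without heifer 971 they were -0.29, -0.35 and -0.49. The fibrinogen chains, which liver and yolk sac secrete, peaked in the same 17 cm conceptus, with 31.9 CPM of FGA and 78.1 of FGB. FGB was at 46.7 and 51.8 CPM in the pair of heifer 778. Their slopes were 1.26 ± 0.61 and 1.11 ± 0.61 with the sheet, and neither was called.

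**Figure D4:**
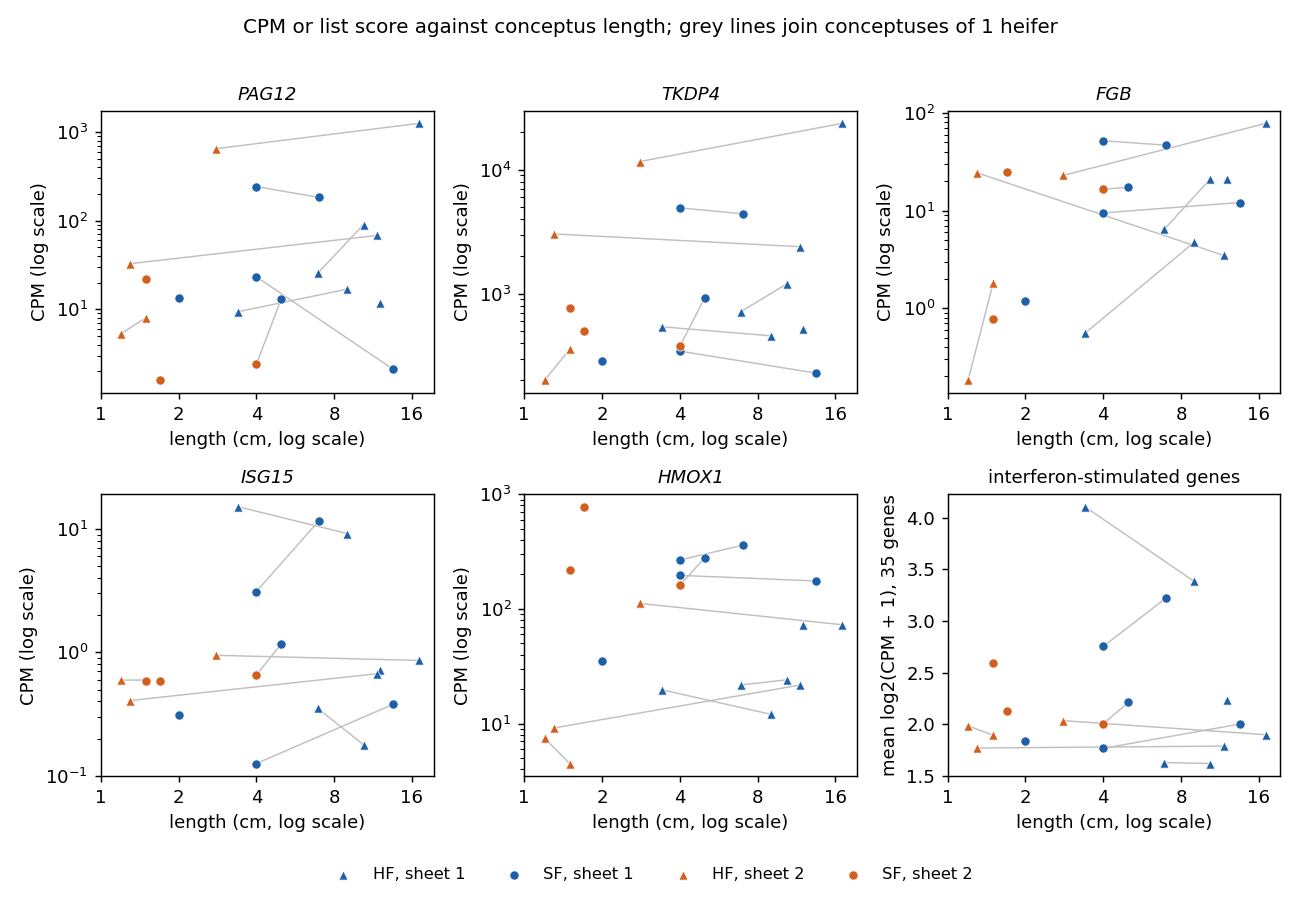
CPM (y axes, log scale) of PAG12, TKDP4, FGB, ISG15 and HMOX1, and the mean log2(CPM + 1) of 35 interferon-stimulated genes (last panel, linear scale), against length in cm (x axes, log scale). Circles are SF and triangles HF, blue is sheet 1 and orange sheet 2. Grey lines join conceptuses of 1 heifer, and the top line in the TKDP4 panel is heifer 971, at 11640 and 23630 CPM.

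Of 29 tested transcription factors of trophectoderm identity 1 was called lower and 0 higher, near the 2.59% and 3.33% of all genes tested. It was TEAD1, the partner of the Hippo effector YAP, at 71.6 to 118.8 CPM (median 97.3) under 2 cm, 45.9 to 72.7 (median 54.7) at 2 to 5 cm and 38.3 to 67 (median 55.1) above. The slope was -0.21 ± 0.07 with the sheet, -0.19 ± 0.06 in sheet 1 and -0.28 ± 0.04 without the sheet (adjusted p = 0.00422). In 5 of 8 heifers the longer conceptus had less TEAD1 and in 3 more. CDX2, which specifies trophectoderm, had 11.9 to 29.5 CPM and a slope of 0.04 ± 0.11. GATA2, a factor that acts on trophoblast genes, had 0.32 ± 0.14 with the sheet and 0.49 ± 0.14 in sheet 1 but -0.06 ± 0.09 without the sheet, and was not called. Of 25 genes of the trophoblast epithelium only KRT7, a simple-epithelium keratin, was called (0.24 ± 0.07, adjusted p = 0.0465), with 0.22 ± 0.11 with the sheet and 0.20 ± 0.11 in sheet 1. Its median rose from 154.3 CPM under 2 cm to 205 and 210.2 CPM, yet in 6 of 8 heifers the longer conceptus had less.

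Among genes listed for the embryonic disc POU5F1, SOX2 and T were low or variable. LIN28A and DNMT3B were not low, at 30.5 to 87.4 and 47.7 to 165.1 CPM. Of 13 tested epiblast genes 1 was called lower, SALL4, a pluripotency zinc finger factor (-0.16 ± 0.05 without the sheet, adjusted p = 0.0485), with -0.01 ± 0.07 with the sheet and 0.08 ± 0.07 in sheet 1. POU5F1, the pluripotency factor OCT4, ran from 0.407 to 18.1 CPM under 2 cm and from 0.502 to 10.9 CPM above 6.9 cm and was not called (-0.49 ± 0.46). SOX2 and T (brachyury) were below the level tested, with at most 74 and 54 counts, and a symbol TBXT is not among the table's names. Of 20 mesoderm and gastrulation genes 0 were called. Of 44 genes of FGF, WNT, BMP and TGF-beta signalling 1 was called lower, the BMP receptor BMPR2 (-0.20 ± 0.06, adjusted p = 0.0449), with -0.16 ± 0.09 with the sheet and -0.20 ± 0.10 in sheet 1.

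Of 31 tested nuclear genes of the respiratory chain, which makes ATP in mitochondria, 4 were called higher and 0 lower, where 3.33% and 2.59% of all genes tested were. With the sheet 22 had a positive slope, and the median there was 0.059, against 0.002 over all genes tested. SDHA, the flavoprotein of succinate dehydrogenase, ran at 128.5 to 152.6 CPM (median 141.9) under 2 cm, 176.5 to 229.9 (median 213.1) at 2 to 5 cm and 200.7 to 270.9 (median 229.4) above. The shortest band lay wholly below the others. Its slope was 0.22 ± 0.05 with the sheet, 0.18 ± 0.05 in sheet 1 and 0.24 ± 0.04 without the sheet (adjusted p = 0.00422). COX5B of cytochrome oxidase (0.19 ± 0.05), UQCRC1 of complex III (0.17 ± 0.05) and NDUFV1 of complex I (0.16 ± 0.05) were the other 3. They had 0.18, 0.14 and 0.18 with the sheet, and 0.16, 0.17 and 0.17 in sheet 1. The longer conceptus had more SDHA and COX5B in 6 of 8 heifers and more UQCRC1 in 5, but less NDUFV1 in 6.

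The metabolic genes given in this paragraph as called were all called higher with length, and had their lowest medians in the conceptuses under 2 cm. ME1, a malic enzyme taken up below, was called lower. Its median was 10.9 CPM under 2 cm and 4.07 and 3.84 CPM in the longer bands. Of 54 lipid metabolism and PPAR genes 2 were called higher, PLIN2, which coats lipid droplets (0.26 ± 0.08), and ACADVL, which starts the oxidation of very long fatty acids (0.20 ± 0.05). They had 0.17 ± 0.105 and 0.08 ± 0.07 with the sheet, and 0.01 ± 0.11 and -0.03 ± 0.08 in sheet 1. PPARG, the nuclear receptor of lipid storage, was at 1.71 to 7.81 CPM and was not called (0.20 ± 0.15). LDHB, a lactate dehydrogenase subunit, was the 1 glycolysis gene of 21 called (0.27 ± 0.07), at 303.6 to 490.5 CPM under 2 cm and 458.7 to 1053 at 2 to 5 cm, with 0.17 ± 0.10 with the sheet and -0.07 ± 0.09 in sheet 1. ASS1, which makes argininosuccinate for arginine and urea synthesis, was at 10.6 to 29.2 CPM under 2 cm and at 37.1 to 163.9 CPM in all 15 others, with a slope of 0.56 ± 0.12 (adjusted p = 0.0175), 0.44 ± 0.17 with the sheet and 0.33 ± 0.20 in sheet 1. In 4 of 8 heifers the longer conceptus had more ASS1 and in 4 less. MVD of the mevalonate pathway was the 1 of 28 cholesterol genes called (0.19 ± 0.05), with 0.20 ± 0.07 with the sheet and 0.14 ± 0.10 in sheet 1. Of 24 glucose, fructose and amino acid transporters 0 were called. ACSL5, a fatty acyl-CoA synthetase, and NR1H3, the liver X receptor alpha, were not called without the sheet but had 1.25 ± 0.41 and 0.53 ± 0.14 with it (unadjusted p = 0.0062 and 0.00131). NR1H3 was highest in the pair of heifer 971, at 7.26 and 14.8 CPM.

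**Figure D5:**
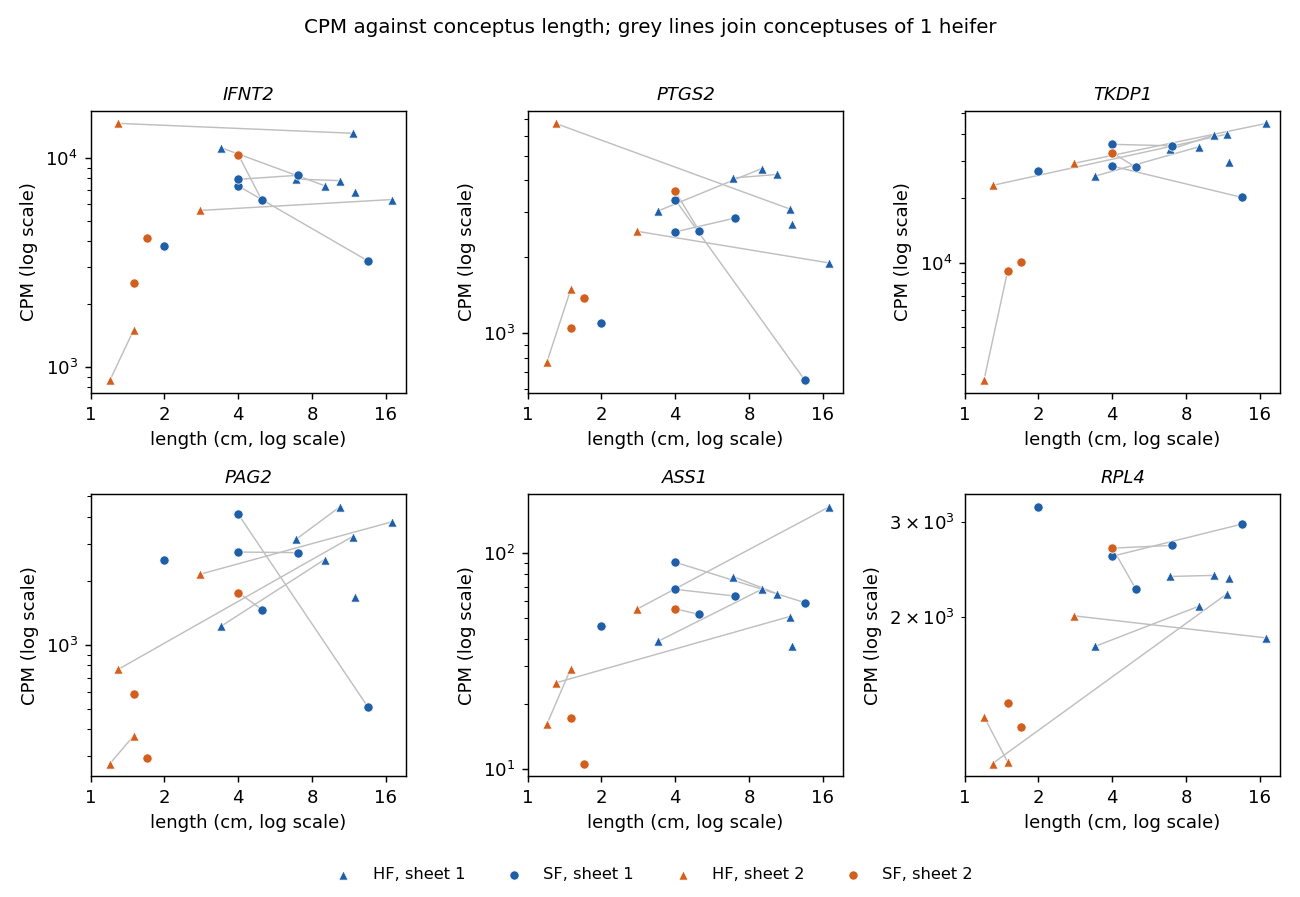
CPM (y axes, log scale) against length in cm (x axes, log scale) for IFNT2, PTGS2, TKDP1, PAG2, ASS1 and RPL4 in the 20 libraries. Circles are SF and triangles HF, blue is sheet 1 and orange sheet 2, and grey lines join conceptuses of 1 heifer. ASS1 and RPL4 lie lower in all 5 conceptuses under 2 cm than in the 15 others, while IFNT2 has its lowest (866.5) and highest (14660 CPM) values among those 5.

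The 10 genes with the smallest p once the sheet was in the fit were taken after their values were seen, a choice that favours slopes of 1 sign within the sheets. SMAD5, which carries BMP signals to the nucleus, led them. It ran at 47.6 to 79.8 CPM (median 75.1) under 2 cm, 37 to 65.9 (median 40) at 2 to 5 cm and 25.8 to 42.9 (median 36.6) above, so that the shortest and longest bands did not overlap. Its slope was -0.40 ± 0.07 with the sheet (unadjusted p = 1.1e-05), -0.39 ± 0.07 in sheet 1 and -0.66 in sheet 2, and it had the smallest adjusted p of these 10 without the sheet (0.00214). BCAT1, the cytosolic branched-chain aminotransferase, had medians of 145.7, 116.7 and 78.1 CPM and a slope of -0.54 ± 0.11 with the sheet and -0.59 ± 0.12 in sheet 1 (adjusted p = 0.0161 without the sheet). In all 8 heifers with 2 conceptuses the longer one had less BCAT1, and 3.69% of all genes were lower in the longer conceptus of at least 7 of 8 heifers (4.26% were higher). In heifers 690, 971 and 985 the longer conceptus was on sheet 1, by a description without a length, and the shorter on sheet 2. Mates were close in length in heifers 690 (4 and 5 cm) and 753 (1.2 and 1.5 cm). Both limits hold for every count of heifers by their longer conceptus given here. RPS6KB2, an S6 kinase downstream of mTOR, had 0.35 ± 0.07 with the sheet and 0.36 ± 0.07 in sheet 1 (adjusted p = 0.0154 without the sheet), with medians of 16.2, 24.5 and 24.4 CPM.

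The other 7 of these 10 were not called without the sheet. ZNF408 (0.28 ± 0.06 with the sheet), the spindle protein TACC3 (0.28 ± 0.06), GNB1L (0.30 ± 0.06) and ROGDI (0.33 ± 0.07) had positive slopes. ZBTB33, the methyl-DNA binding protein Kaiso (-0.36 ± 0.07), NUDT9, an ADP-ribose hydrolase (-0.40 ± 0.08), and TBC1D15, a Rab GTPase-activating protein (-0.39 ± 0.08), had negative ones. TACC3 was at 81 to 98 CPM under 2 cm and at 102.7 to 140 CPM from 6.9 cm on, without overlap. The band of 2 to 5 cm, at 78.4 to 153.6 CPM, spanned both.

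Of the genes described above, 8 that kept their sign across subsets of the conceptuses were taken: APOA1, APOE, SDHA, RPS6KB2, TEAD1, SMAD5, BCAT1 and PDGFRA. Each was chosen after its values were seen, so that the shared sign is a description and no test. They were not the only such genes: others, among them NDUFV1 and ZBTB33, kept their sign in these subsets too. In SF conceptuses alone SMAD5 had -0.46 ± 0.11 and in HF alone -0.41 ± 0.12, APOA1 0.50 ± 0.14 and 0.76 ± 0.21, and BCAT1 -0.45 ± 0.15 and -0.80 ± 0.14. Without the 5 conceptuses under 2 cm SMAD5 had -0.35 ± 0.08, APOA1 0.37 ± 0.13, APOE 0.40 ± 0.12 and SDHA 0.15 ± 0.06. Between mates of 1 heifer, with the heifer as a block, SMAD5 had -0.33 ± 0.11, BCAT1 -0.35 ± 0.09, APOA1 0.32 ± 0.13 and TEAD1 -0.13 ± 0.09. None of these fits called any gene after adjustment. With the columns identified by the descriptions the slopes were -0.02 ± 0.13 for SMAD5, -0.14 ± 0.15 for BCAT1, -0.11 ± 0.17 for APOA1, -0.15 ± 0.18 for APOE and -0.08 ± 0.09 for SDHA, so that these slopes rest on the titles.

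Among the genes called without the sheet term with a mean of at least 5 CPM and 1 sign in both classes, the 12 largest rises were ASS1, TKDP1, APOE, APOA1, BCL2L14, ENSA, C1S, RAB13, NES and 3 tRNA genes, with slopes of 0.23 to 0.69 with the sheet. ENSA, an inhibitor of the phosphatase PP2A, was at 19.9 to 30.2 CPM under 2 cm and at 40.9 to 78.4 CPM in the 15 others, and was higher in the longer conceptus of all 8 heifers (0.42 ± 0.08 without the sheet, 0.16 ± 0.09 in sheet 1). C1S, a complement protease (0.40 ± 0.11), BCL2L14, a BCL2 relative (0.42 ± 0.12), and NES, the intermediate filament nestin (0.39 ± 0.10), had 0.54, 0.47 and 0.26 in sheet 1. RAB13, a GTPase of tight junction traffic, had 0.39 ± 0.08 and 0.13 in sheet 1. The tRNA genes TRNAK-CUU-8, TRNAS-GCU-13 and TRNAG-GCC-6 had 0.92, 0.55 and 0.53 without the sheet, and 0.75, 0.64 and 0.75 in sheet 1. All tRNA genes together took 0.0398% to 0.0899% of the counts under 2 cm and 0.0404% to 0.2887% above 6.9 cm.

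The 12 largest falls were MAP1B, PPP2R5B, PDGFRA, CCDC109B, ME1, SLC10A4, MPZL2, SLC35D1, R3HDM1-2, PGAP1, RERE and HIVEP1, from -1.13 to -0.38 without the sheet and from -1.42 to -0.21 with it. MAP1B, a microtubule-associated protein, rested on few conceptuses: it was at 53.4 CPM in 1 of 1.5 cm, 29.5 in 1 of 2 cm and 10.5 in another of 1.5 cm, and at most 3.58 CPM in the other 17. The longer conceptus had more MAP1B in 6 of 8 heifers, against its slope of -1.13 ± 0.26. MPZL2, an adhesion protein of epithelia, was lower in long conceptuses within each sheet (-0.63 ± 0.21 in sheet 1, -1.19 in sheet 2). SLC10A4, of the bile acid transporter family, was at 29.4 to 61.2 CPM under 2 cm, with medians of 22.8 and 12.8 CPM in the longer bands, and was lower in the longer conceptus of 7 heifers. Without the sheet ME1, the cytosolic malic enzyme, R3HDM1-2 and HIVEP1, a zinc finger factor, had -0.45 ± 0.12, -0.40 ± 0.09 and -0.38 ± 0.10. In sheet 1 these 3 had -0.04 ± 0.15, 0.02 ± 0.15 and -0.02 ± 0.17. The corepressor RERE, the UDP-sugar transporter SLC35D1, CCDC109B, a subunit of the mitochondrial calcium uniporter, and PPP2R5B, a regulatory subunit of PP2A, had -0.22, -0.27, -0.40 and -0.26 in sheet 1. PGAP1, which remodels GPI anchors, had -0.40 ± 0.09 without the sheet and -0.23 ± 0.11 in sheet 1.

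Each of 3 further lists had 1 called member, where 3.33% of all genes tested were called higher and 2.59% lower. Of 39 genes of cell cycle and DNA replication 1 was called, CDK6, a G1 kinase (-0.33 ± 0.09), with -0.18 ± 0.15 with the sheet and -0.01 ± 0.15 in sheet 1. Of 24 imprinted and IGF axis genes 1 was called, SNRPN, a splicing protein of an imprinted locus (0.15 ± 0.04), with 0.14 ± 0.06 with the sheet and 0.17 ± 0.07 in sheet 1. Of 23 genes of ER stress and the immediate early response 1 was called, the stress factor ATF4 (0.28 ± 0.05, adjusted p = 0.013), with 0.16 ± 0.07 with the sheet and 0.18 ± 0.07 in sheet 1. ATF4 was higher in the longer conceptus of 7 of 8 heifers. Of 45 genes of extracellular matrix and adhesion, 34 of cytoskeleton and cell shape, and 17 transcripts of uterine, immune and blood cells 0 were called.

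Interferon-stimulated genes, which respond to interferon in many cells, were high in both conceptuses of 2 heifers. Of 35 tested 0 were called. With the sheet 31 had a negative slope and the median was -0.504, against 0.002 over all genes, of which 7884 of 15592 were positive. Without the sheet the median of the list was 0.057. ISG15, a ubiquitin-like modifier, was at 15.1 and 9.16 CPM in the 3.4 and 9 cm conceptuses of heifer 825 and at 3.1 and 11.68 CPM in the 4 and 7 cm conceptuses of heifer 778, and at most 1.17 CPM in the other 16. The mean log2(CPM + 1) of the list was 4.1 and 3.38 in heifer 825 and 2.75 and 3.22 in heifer 778, against at most 2.59 elsewhere. Without heifer 825 the ISG15 slope changed from -0.52 ± 0.61 to 0.25. HERC5, which attaches ISG15 to proteins, had -0.82 ± 0.26 with the sheet. The uterine, immune and blood marker sum in these 4 libraries was 19.3 to 21.8 CPM, within the range of 1.44 to 33.1 CPM over all 20, and its part in the result was not tested. By median over the 20 libraries PECAM1 was the main gene of that sum.

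A set of genes separated the 5 conceptuses under 2 cm from all 15 others, a boundary chosen after the values were seen. In 285 genes (1.83%) all 5 lay below the others and in 179 (1.15%) all 5 lay above. Because all 5 were on sheet 2, length and sheet cannot be told apart for a step at that place. Gene families were grouped by symbol after the values were seen, and their counts are a description. Of 79 genes with ribosomal protein symbols 14 lay below (17.7%) and 0 above, such as RPL4, a large subunit protein, at 1074 to 1391 CPM against 1766 to 3196, and RPS6, the target of S6 kinases, at 475.4 to 716 against 797 to 1308. Of 38 proteasome subunits 6 lay below, among them PSMA7, at 164.4 to 245.4 CPM against 251.9 to 385.3.

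Of 9 subunits and relatives of the ARP2/3 complex, which nucleates branched actin, 3 lay below. ARPC2 was one of them, at 194.2 to 281.7 CPM against 292.9 to 427.1. EZR, the membrane-actin linker ezrin of microvilli, was at 1244 to 1939 CPM against 1953 to 3107. Of 7 histone methyltransferases of the KMT2 and SETD1 families 4 lay above (57.1%). KMT2D was at 62.5 to 115.6 CPM against 9.52 to 54 in the 15 others. The acetyltransferase CREBBP was at 33.2 to 59.8 against 11.3 to 30.4, and the nucleosome remodeller subunit BPTF at 67.1 to 120.2 against 34.2 to 60.3. MKI67, a marker of cycling cells, was at 160.1 to 281.2 CPM against 50.1 to 148.9. Within sheet 1 the slope of RPL4 was 0.01 ± 0.07, that of PSMA7 0.00 ± 0.06 and that of KMT2D 0.16 ± 0.20. MKI67 had 0.35 ± 0.11 there, the opposite sign to the step.

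Whether slopes differed between the fertility classes was tested by an interaction. No gene passed in edgeR (0 of 15592, 0%), where 775 had an unadjusted p under 0.05 (4.97%), and DESeq2 called 10. A bend of the relation was tested with a squared term, and again 0 genes passed (0%), with 934 at an unadjusted p under 0.05 (5.99%) and 6 called by DESeq2.

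At equal length 1 gene differed between SF and HF conceptuses (0.00641%): HMOX1, the heme oxygenase that breaks down heme, was higher in SF by 3.72 ± 0.57 on the log2 scale (edgeR, adjusted p = 0.0438). SF conceptuses ran from 35.5 to 779.9 CPM and HF ones from 4.48 to 111.9 CPM. Of the 9 SF conceptuses 8 lay above all 11 HF ones, and the other, of 2 cm from heifer 910, had 35.5 CPM. The highest HF values, 111.9 and 72.8 CPM, were those of heifer 971. Mates lay near each other, as with 267.3 and 360 CPM in heifer 778 and 7.44 and 4.48 CPM in heifer 753. Class belongs to the heifer, and the fit had no term for the heifer. Its SE and p therefore count mates as independent. The 1 SF library without a length, from heifer 748, had only 10.6 CPM, within the 7.77 to 106.3 CPM of the 5 HF long libraries without a length. The difference lost its call without the sheet (3.17, adjusted p = 0.0707) and without length in the fit (2.95, adjusted p = 0.122). Leaving out a heifer in turn gave adjusted p from 0.0121 to 0.148, above 0.05 without heifer 753, 755, 778, 782, 825, 894, 903 or 985. The count of class differences moved between 0 and 37 genes over those fits (12, 4, 36 and 37 without heifers 690, 725, 910 and 971, and 0 without any other), and DESeq2 called 340.

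The libraries without a stated length had no part in the slopes. In HF, 1 short library (heifer 700) was set beside 5 long ones, as a description with no test. Of the 519 genes called higher with length, 31 lay below all 5 long libraries in it (5.97%) and 150 above all (28.9%), against 16.7% and 17% of all genes tested. Of the 404 called lower, 95 lay below all (23.5%) and 29 above all (7.18%). For both sets this library, though classed as short, lay more often on the side that the slopes give to longer conceptuses. ASS1 was at 68.1 CPM in it, inside the 37.4 to 104.7 CPM of the long ones, SDHA at 225.5 CPM inside 182.9 to 262.8, TKDP1 at 43460 CPM above their 29580 to 41610, and SMAD5 at 35.6 CPM inside 34.2 to 53.4. The length of that conceptus is not stated, so where it lay along the scale is unknown.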

How the data were processed

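Per the labels' protocols, conceptus RNA was extracted with the AllPrep kit and libraries were made with Illumina's stranded TruSeq mRNA kit. The authors deposited raw read counts for each gene. HISAT2, StringTie, edgeR and the UMD3.1 build are named per the submitters' processing notes, without versions or settings, and whether strand was used in counting is unstated. The authors' table held 31651 named genes. Its 1020 blank lines and the 25 endometrium libraries were left out. The RefSeq gene table used for names was that of ARS-UCD2.0, so coordinates were left out: of 15592 names tested 12632 were current symbols there and 486 synonyms, and 2758 names had the LOC form, which overlaps the current symbols.

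Counts were filtered with filterByExpr by class (minimum count 10, total 15) and scaled by TMM. They were fitted with edgeR 4.0.16 in R 4.3.3 (quasi-likelihood test, class, sheet and log2 length), with Benjamini-Hochberg adjustment over all genes tested. Calls were made at 0.05. Values after ± are standard errors of log2 slopes, as implied by the slope and its test. CPM were scaled by TMM over all 27 conceptus libraries, while each fit was scaled over its own libraries. Totals were 20.6 to 47 M counts, and counting error bears on low genes most. Scores are means of log2(CPM + 1), and principal components used log2 CPM with a prior count of 2. The slope script was tested on simulated data with 200 changed genes. Alternatives included limma 3.58.1 and DESeq2 1.42.0.

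The members, the 24 gene lists and the tests were chosen with earlier results of these data known. The rule for named genes took called genes with a symbol not of the LOC form, a mean of at least 5 CPM and slopes of 1 sign in both classes, the 12 largest each way, then up to 4 called members of each list, and 10 fixed genes. As the fit with the sheet called none, the rule was applied to the fit without it, and 10 genes of smallest p with the sheet were added. That choice, the length bands, the families by symbol, and FGA, FGB, HNF4A, PAG12, TKDP2, TKDP4, GATA2, ACSL5, NR1H3, ISG15, HERC5 and the genes named for the step at 2 cm were chosen after their values were seen. Replicate numbers in these labels do not pair samples, but the heifer number does: mates correlated with a median of 0.341.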

Additional observations from a re-analysis of the deposited data

Results flagged for a closer look

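Single conceptuses stood far from the others of their group (SF with 9, HF short with 6, HF long with 5) in 34 of 234 combinations of gene and group examined. Chance gives about 1 in 20 groups, but some of these genes were named because of such values, so the 2 rates cannot be compared. Heifer 971 held 15 of them. Her 17 cm conceptus stood apart from the other 4 HF long ones in PAG12 (1252 CPM, next 90.5), TKDP4 (23630, next 2396), TKDP2 (1057, next 5.29), FGB (78.1, next 21.1), FGA (31.9, next 6.52), ASS1 (163.9, next 68), NR1H3 (14.8, next 4.66) and ARPC2 (427.1, next 330.5 CPM), and was low in SALL4 (41.7, next 55.2 CPM). Her 2.8 cm conceptus stood apart among HF short ones in TKDP4 (11640, next 3038), PAG12 (650, next 32.8), HMOX1 (111.9, next 21.7), ACSL5 (37.4, next 9.69), BCL2L14 (12.8, next 6.28) and NR1H3 (7.26, next 4.15 CPM). The 17 cm library also had the largest share of RN7SL1 and RMRP, 8.55% of its counts, which was 3.98% in its 2.8 cm mate; the part of this in the result was not tested.

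Heifer 825 stood apart in ISG15 in both conceptuses (15.1 CPM at 3.4 cm and 9.16 at 9 cm, next 0.946 and 0.86) and in POU5F1 at 9 cm (4.88 CPM, next 1.19). In SF, ISG15 was far highest in the 7 cm conceptus of heifer 778 (11.68 CPM, next 3.1).

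The 1.5 cm SF conceptus of heifer 782 was far highest in BCAT1 (252.3 CPM, next 149.5), PDGFRA (90.9, next 42.5), SLC10A4 (61.2, next 33.7), SLC35D1 (33.9, next 18.8) and HERC5 (21.3, next 11.5). It was also the library with the lowest PC2 score, -74.96, and with 31.7 CPM of uterine, immune and blood markers, a sum whose main gene by median was PECAM1 and whose part in this was not tested. The 1.7 cm SF conceptus of heifer 903 was far highest in HMOX1 (779.9 CPM, next 360) and SALL4 (76, next 59.9). MAP1B stood out in 1 conceptus of 1.5 cm from heifer 753 (53.4 CPM, next 2.47) and in 1 of 2 cm from heifer 910 (29.5, next 10.5).

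The longer conceptus of heifer 755 was far highest among SF in TRNAG-GCC-6 (404.3 CPM, next 114.9), TRNAK-CUU-8 (44.6, next 18.7) and TRNAS-GCU-13 (18.8, next 7.5). IFNT2 was far highest among HF long conceptuses in the longer one of heifer 985 (13150 CPM, next 7805), ME1 among HF short ones in her 1.3 cm one (19.9, next 5.31), and SNRPN in the 12 cm one of heifer 725 (29.6, next 23.6).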

How the results depend on the processing

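The count of genes called along length was 0 in the fit with the sheet and stayed 0 within sheet 1, within sheet 2, with the heifer as a replicate block (edgeR, 0 called) or as a random block (limma-voom, consensus correlation 0.299), with length in cm, with lengths or columns taken from the descriptions, with limma-voom, with either other scaling, in SF only, in HF only, without the 2 extreme lengths, and in each fit without 1 heifer (0 to 0). It also stayed 0 in 3 settings added after seeing the data: a filter by the design, no conceptus under 2 cm, and no tRNA, RN7SL1 and RMRP counts. It moved to 923 (519 higher and 404 lower) without the sheet, 48 (27 and 21) in DESeq2 and 2 (1 and 1) without a filter. DESeq2 called 10 genes for the slope difference and 6 for the bend. Class differences at equal length numbered 1, 0 without the sheet, 0 without length, 340 in DESeq2 and 0 to 37 without 1 heifer. The causes of these moves were not tested.

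Of 2423 values of 79 genes under an alternative, 2215 kept their direction and side of the threshold, 61 passed it, 10 lost it and 137 changed sign. With the 22 samples identified by their descriptions the slopes that changed sign were APOA1 -0.11, APOE -0.15, TF -0.33, FGA -0.25, FGB -0.44, GATA4 -0.033, PAG12 -1.73, TKDP1 -0.073, TKDP2 -1.08, TKDP4 -1.14, GATA2 -0.14, TEAD1 0.075, KRT7 -0.064, POU5F1 0.051, SALL4 0.12, ACADVL -0.20, ACSL5 -0.49, NR1H3 -0.16, MVD -0.033, SDHA -0.080, UQCRC1 -0.0065, COX5B -0.060, ASS1 -0.043, BMPR2 0.080, RPS6KB2 -0.040, ZNF408 -0.030, TACC3 -0.015, NUDT9 0.075, GNB1L -0.027, ROGDI -0.038, TBC1D15 0.18, ATF4 -0.11, CDK6 0.14, BCL2L14 -0.072, ENSA -0.18, RAB13 -0.21, PPP2R5B 0.56, ME1 0.14, SLC10A4 0.27, SLC35D1 0.035, R3HDM1-2 0.20, PGAP1 0.35, RERE 0.0094, HIVEP1 0.16, HMOX1 -0.36, RPL4 -0.018, RPS6 -0.015, ARPC2 -0.093, EZR -0.044, CREBBP 0.098, KMT2D 0.16 and BPTF 0.16. Without the sheet they were GATA4 -0.13, CDX2 -0.014, GATA2 -0.060, ISG15 0.55 and MKI67 -0.21. In sheet 1 alone they were IFNT2 -0.16, PAG2 -0.12, PTGS2 -0.26, SALL4 0.080, PPARG -0.035, ACADVL -0.034, LDHB -0.070, R3HDM1-2 0.019, RPS6 -0.082, CREBBP 0.058 and KMT2D 0.16, and in sheet 2 alone HNF4A -0.30, GATA4 -0.46, GATA2 -0.024, ISG15 0.41 and MKI67 -0.80. With the heifer as a replicate block they were GATA4 -0.12, IFNT2 -0.14, PAG12 -0.53, TKDP4 -0.27, PTGS2 -0.30, KRT7 -0.022, SALL4 0.044, UQCRC1 -0.011, CDK6 0.063, PPP2R5B 0.19, TRNAK-CUU-8 -0.078, ISG15 0.096 and HMOX1 -0.13, and as a random block PTGS2 -0.048 and SALL4 0.0038. In SF only they were PAG2 -0.061, PAG12 -0.92, TKDP4 -0.14, POU5F1 0.17, SALL4 0.023, CDK6 0.032 and KMT2D 0.10, and in HF only IFNT2 -0.20, PTGS2 -0.24, SALL4 0.041, PLIN2 -0.031, ACADVL -0.010 and LDHB -0.12. With slopes per cm of length they were IFNT2 -0.0097, PTGS2 -0.052, SALL4 0.0038, RPS6 -0.0023 and KMT2D 0.0032. Without the 5 conceptuses under 2 cm they were IFNT2 -0.039, PAG2 -0.091, PTGS2 -0.097, SALL4 0.045, ACADVL -0.045, R3HDM1-2 0.027, HIVEP1 0.0069, RPS6 -0.060, CREBBP 0.038 and KMT2D 0.19, and without the 2 extreme lengths TKDP2 -0.24, CDX2 -0.067 and MKI67 -0.028. Over the fits without 1 heifer these slopes spanned 0: IFNT2 -0.16 to 0.35, PAG12 -0.49 to 2.31, TKDP2 -0.35 to 1.82, TKDP4 -0.29 to 1.61, PTGS2 -0.29 to 0.31, CDX2 -0.095 to 0.13, SALL4 -0.059 to 0.036, PPARG -0.038 to 0.44, LDHB -0.0060 to 0.24, ISG15 -0.83 to 0.25, RPS6 -0.056 to 0.094, KMT2D -0.30 to 0.094, MKI67 -0.021 to 0.24.

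Depth was 20.6 to 47 M counts a library. Counts limit low genes such as POU5F1, AFP and SOX2, and the 12 heifers and the overlap of sheet with length (variance 2.464 times as large) limit every slope.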

Other observations

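PC1, which did not order the conceptuses by length, had both conceptuses of heifers 971 (54.27 at 2.8 cm and 84.2 at 17 cm) and 778 (44.93 at 4 cm and 42.03 at 7 cm) at its high end, with the 1.3 cm conceptus of heifer 985 at 40.3. At its low end were a 2 cm conceptus of heifer 910 (-63.26) and both of heifer 755 (-45.72 and -41.18). The genes with the largest positive loadings included the tetraspanin TSPAN1, the calcium carrier S100G, the integrin chain ITGB2, the receptor CALCRL and PAG12. Those with the largest negative ones included the fatty acid transporter SLC27A6, the estrogenic enzyme HSD17B1 and the efflux pump ABCC2.

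At equal length and class, 24 of 15592 genes (0.154%) differed between the sample sheets in edgeR, 2 higher and 22 lower on sheet 2.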
